A study of Mus musculus with 32 samples.

Results

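The granule genes of young monocytes were followed from a bone marrow graft into the gut. The 10 genes were Mpo, Elane, Prtn3, Ctsg, Ms4a3, Serpinb10, Chil3, Lcn2, Camp and Ngp. They were chosen by symbol, and all 10 were found among the 24411 genes of the table holding the graft and the CD11c-DTR recipients and among the 24421 genes of the table holding the CX3CR1-DTR recipients.

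Monocytes of Cx3cr1-GFP donor mice, sorted as CD117- CD11b+ CD115+ Ly6C+ cells, were the graft, and 3 graft libraries were sequenced. Recipients were bone marrow chimeras on the C57BL/6 background, irradiated at 7 to 10 weeks of age. Their own macrophages carried a diphtheria toxin receptor and were depleted by toxin at 18 ng per gram before the transfer and 9 ng per gram after it. Graft-derived macrophages were sorted from colon on day 4 (3 libraries), day 8 (3 libraries) and day 12 (4 libraries), and from ileum on day 4, 8 and 12 (4 libraries each). In these recipients the receptor was driven by the CD11c (Itgax) promoter. In a second kind of recipient it was driven by the Cx3cr1 promoter, and 6 colonic libraries were sequenced, for which the methods give day 14 and the labels give no day. The study states 4 repeats for this set but does not identify them among these 6, and all 6 were used. All recipients had been irradiated, reconstituted and given toxin, and the graft had not. The labels name blood as the organ of the graft libraries and give them the CD11c-DTR genotype, whereas the methods describe marrow cells of Cx3cr1-GFP donors. The replicates came from 3 dated experiments, with 1 graft library in each, but nothing says that libraries of 1 experiment came from different animals, so p-values measure the spread between libraries. The experiments were not balanced over the groups. Among the libraries counted above, experiment 1 gave 0 to colon on days 4 and 8 and to ileum on day 8. Ileum on day 4 held 2 libraries of experiment 1 and 0 of experiment 3. Comparisons of days and of segments are therefore in part comparisons of experiments.

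Mpo, Elane, Prtn3 and Ctsg encode myeloperoxidase and the serine proteases neutrophil elastase, proteinase 3 and cathepsin G, which are packed into the primary granules. Their transcripts are made in promyelocytes and in granulocyte-monocyte progenitors, and the proteins outlast the transcripts. Camp, Ngp and Lcn2 encode cathelicidin, neutrophilic granule protein and the iron-chelator-binding lipocalin 2, products of the later secondary granules, and Lcn2 is also made by many epithelia and by stimulated macrophages. Chil3 encodes the chitinase-like protein Ym1, Serpinb10 an intracellular serpin, and Ms4a3 a membrane protein of granulocyte-monocyte progenitors.

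The libraries held 591817 to 5228664 reads on genes in the CD11c-DTR table and 1223772 to 4218027 in the CX3CR1-DTR libraries. Levels are given as normalized reads, that is reads per 10000000 mapped reads, where 1 read was worth 1.17 to 9.22 normalized reads. The labelled macrophage identity was checked with C1qa, a complement gene of gut macrophages. It stood at 30.2 ± 13.6 normalized reads (SD, n = 3) in the graft and at 1262 to 42182 in the engrafted libraries. Other macrophage genes split. Adgre1, Cd68 and Cx3cr1 went from means of 952, 2557 and 1010 in the graft to 126, 255 and 225 in colon on day 4. Of 9 listed macrophage genes tested, 4 rose and 4 fell there (35.9% and 24.5% of all genes tested did), as given further on. The engrafted libraries also held epithelial transcripts. The 10 epithelial markers listed summed to 32.9 to 58.9 normalized reads in the graft, with 3 of 10 at 0, against 100027 to 157431 in colon and 18630 to 123392 in ileum, with none at 0. The CD45 gene Ptprc stood at 5040 ± 1141 in the graft, at 300 ± 247 in colon (n = 10) and at 1108 ± 735 in ileum (n = 12). Every level below is therefore a share of a library that also held epithelial RNA, and its part in the results was not tested beyond the comparison with Ptprc and Csf1r given further on. In bulk samples, fewer cells of a type and less RNA per cell cannot be told apart.

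In mm9, Prtn3 (chr10:79342412-79345917, plus strand) and Elane (chr10:79349057-79350961, plus strand) are neighbours with 3139 bases between them. Ctsg lies at chr14:56718722-56721411 (minus), Mpo at chr11:87607286-87617914 (plus), Ms4a3 at chr19:11703989-11715341 (minus) and Serpinb10 at chr1:109425580-109445848 (plus). Chil3 lies at chr3:105950472-105970482 (minus) and Lcn2 at chr2:32240157-32243259 (minus). Camp (chr9:109749891-109751970, minus) and Ngp (chr9:110322312-110325516, plus) share a chromosome and are 570341 bases apart. To see whether the 10 genes share letters upstream, the 200 bases before each start were read from the mm9 genome and searched on both strands for the PU.1-type motif GAGGAA, the RUNX motif TGTGGT, the C/EBP motif TTGCNNAA and the MYB motif AACNG. The 4 upstream sequences below are those that hold 1 of the first 3 motifs outside annotated exons, written 5′ to 3′ along the gene, with matches to these motifs in capitals and bases of exons in the GENCODE annotation left off.
Elane, chr10:79348857-79349056, plus strand: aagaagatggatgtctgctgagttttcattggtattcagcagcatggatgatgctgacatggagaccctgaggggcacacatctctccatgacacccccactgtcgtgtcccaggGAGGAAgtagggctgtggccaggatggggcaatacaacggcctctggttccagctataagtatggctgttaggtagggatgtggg
Prtn3, chr10:79342212-79342358, plus strand: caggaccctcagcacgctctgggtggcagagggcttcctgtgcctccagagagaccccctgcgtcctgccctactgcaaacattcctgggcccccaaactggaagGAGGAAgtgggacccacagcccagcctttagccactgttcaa
Ctsg, chr14:56721412-56721611, minus strand: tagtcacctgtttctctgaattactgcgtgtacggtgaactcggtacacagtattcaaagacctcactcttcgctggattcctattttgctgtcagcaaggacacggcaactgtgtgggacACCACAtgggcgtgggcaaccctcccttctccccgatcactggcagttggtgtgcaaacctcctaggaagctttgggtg
Ngp, chr9:110322112-110322253, plus strand: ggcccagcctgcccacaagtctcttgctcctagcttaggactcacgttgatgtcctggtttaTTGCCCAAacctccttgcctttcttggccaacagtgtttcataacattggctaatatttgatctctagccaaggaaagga

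The neighbouring Prtn3 and Elane each held 1 GAGGAA, which began 95 and 85 bases before the start, and Lcn2 held 1 inside an annotated exon. GAGGAA was thus present in 3 of 10 windows, against 18.8% of the 24343 windows of all genes. TGTGGT was present in 1 of 10 (Ctsg) against 9.89%, and TTGCNNAA in 1 of 10 (Ngp) against 6.88%. AACNG was present in 8 of 10, all but Ms4a3 and Serpinb10, against 63.5%. No 2 matches to the first 3 motifs overlapped in any of the 10 windows. A match describes these letters only.

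In the graft all 10 genes were read in each of the 3 libraries, and Ms4a3 and the 4 primary granule genes varied more than the other 5. In experiments 1, 2 and 3, Mpo stood at 615, 702 and 188 normalized reads, and Elane at 552, 615 and 234. Ctsg stood at 947, 792 and 403, and Prtn3, the protease gene with the most reads, at 3490, 2799 and 1645. In all 4 genes the library of experiment 3 was the lowest. Ms4a3 stood at only 21.8, 56.1 and 11.6, from 9, 20 and 6 reads, again lowest in experiment 3. The mean of experiments 1 and 2 exceeded experiment 3 by a factor of 3.5 for Mpo, 2.49 for Elane, 2.16 for Ctsg and 1.91 for Prtn3, whereas the median of this ratio over the 5682 tested genes with a graft mean of at least 200 normalized reads was 0.966 and its 95th percentile 1.35. With 1 graft library per experiment this contrast has no replicate and no test.

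The other granule genes did not share it. Chil3 stood at 7696, 9777 and 9905 normalized reads in experiments 1, 2 and 3, Lcn2 at 930, 702 and 853, and Serpinb10 at 542, 904 and 806. Camp stood at 446, 522 and 546, and Ngp at 857, 904 and 1011. For these 5 genes the ratio ran from 0.871 (Ngp) to 0.957 (Lcn2). The coefficient of variation over the 3 grafts was 78.1% for Ms4a3, 54.8% for Mpo, 43.7% for Elane, 39.2% for Ctsg and 35.2% for Prtn3, and ran from 8.55% (Ngp) to 24.9% (Serpinb10) in the other 5, against a median of 13.8% over the same 5682 genes. Of the cell cycle list, all 10 genes were read in the graft, and the ratio ran from 0.961 to 1.43 with a median of 1.31, so that library was also somewhat lower in cycling transcripts. Markers of other cells moved with it only in part. The median ratio was 1.87 over 7 neutrophil genes, which split. S100a8 stood at 1.91, S100a9 at 1.27, Trem1 at 2.02 and Cxcl2 at 17.4, but Csf3r at 0.671 and Mmp8 at 0.591. Retnlg (1.87) was lower in experiment 2 (50.5) than in experiment 3 (63.9). Over 2 erythroid genes the median ratio was 2.25 (2.2 and 2.29). The part of these markers in the order of the grafts was not tested. Over 8 progenitor genes with a graft mean of at least 50 the median ratio was 1.2 (0.573 to 1.65). Of other granule genes, the serine protease gene Prss57 (33.9, 25.3 and 13.6) and the cystatin gene Cst7 (109, 84.2 and 46.5) were also lowest in experiment 3. Their ratios were 2.18 and 2.08. Ctsc, the protease that activates granule proteases, was highest in experiment 3 (2679, 4778 and 5728).

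**Figure D1:**
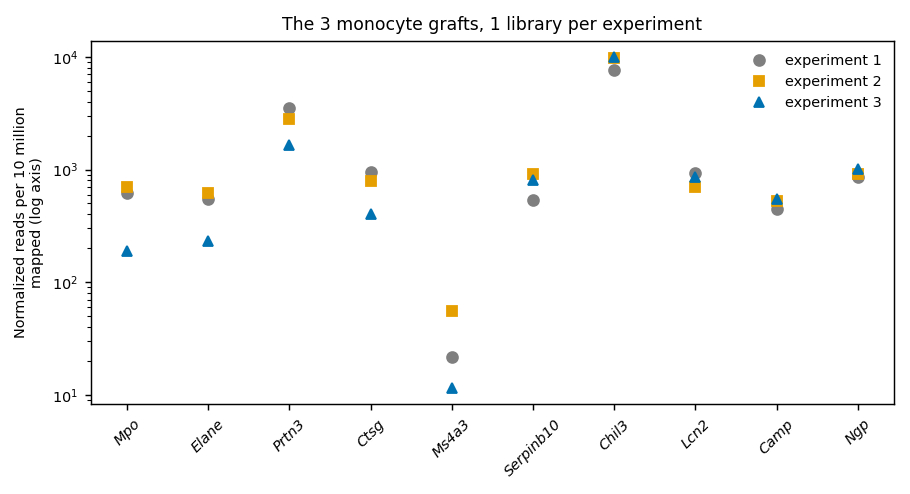
Normalized reads per 10000000 mapped reads (log axis) of the 10 granule genes in the 3 monocyte grafts, 1 point per library and 1 library per experiment. Mpo, Elane, Prtn3, Ctsg and Ms4a3 are lowest in experiment 3 (triangles; Mpo 188 against 615 and 702), while Chil3, Camp and Ngp are highest there.

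After transfer the mean of each of the 10 granule genes, as a share of mapped reads, was below the graft by the first day measured. Lcn2 was still read in 22 of 22 engrafted libraries, and against Ptprc not every gene was lower, as given further on. Of the 10 genes, 9 passed the filter on low values (at least 50 normalized reads in 3 libraries), and 8 of the 9 (all but Lcn2) needed the graft libraries to pass, so that they had to differ and their count is no result. In edgeR's quasi-likelihood test (Benjamini-Hochberg adjusted p below 0.05 over 11842 genes) 9 of 9 were lower than the graft in colon on day 4 (24.5% of all genes tested were), day 8 (23.9%) and day 12 (24.9%), and in ileum on day 4 (20.5%) and day 12 (20.0%). In ileum on day 8, 8 of 9 were lower (19.5% of all genes), and Lcn2 was the exception. Each of the 10 genes was lower than the graft of its own experiment in 22 of 22 engrafted libraries. For genes high in the graft alone this count is no result either, and the share of all genes that did so was not counted. Scaled by TMM, the median of all genes shifted by 0.20 to 0.24 on the log2 scale from the graft to these groups, and by -0.35 to -0.04 when scaled by library totals. The 9 genes fell under both scalings. Over all genes, 35.9%, 35.2% and 37.7% rose to colon on days 4, 8 and 12 and 36.2%, 34.3% and 35.9% to ileum, so that 60.4%, 59.1% and 62.6% changed in either direction in colon and 56.7%, 53.9% and 55.9% in ileum.

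**Figure D2:**
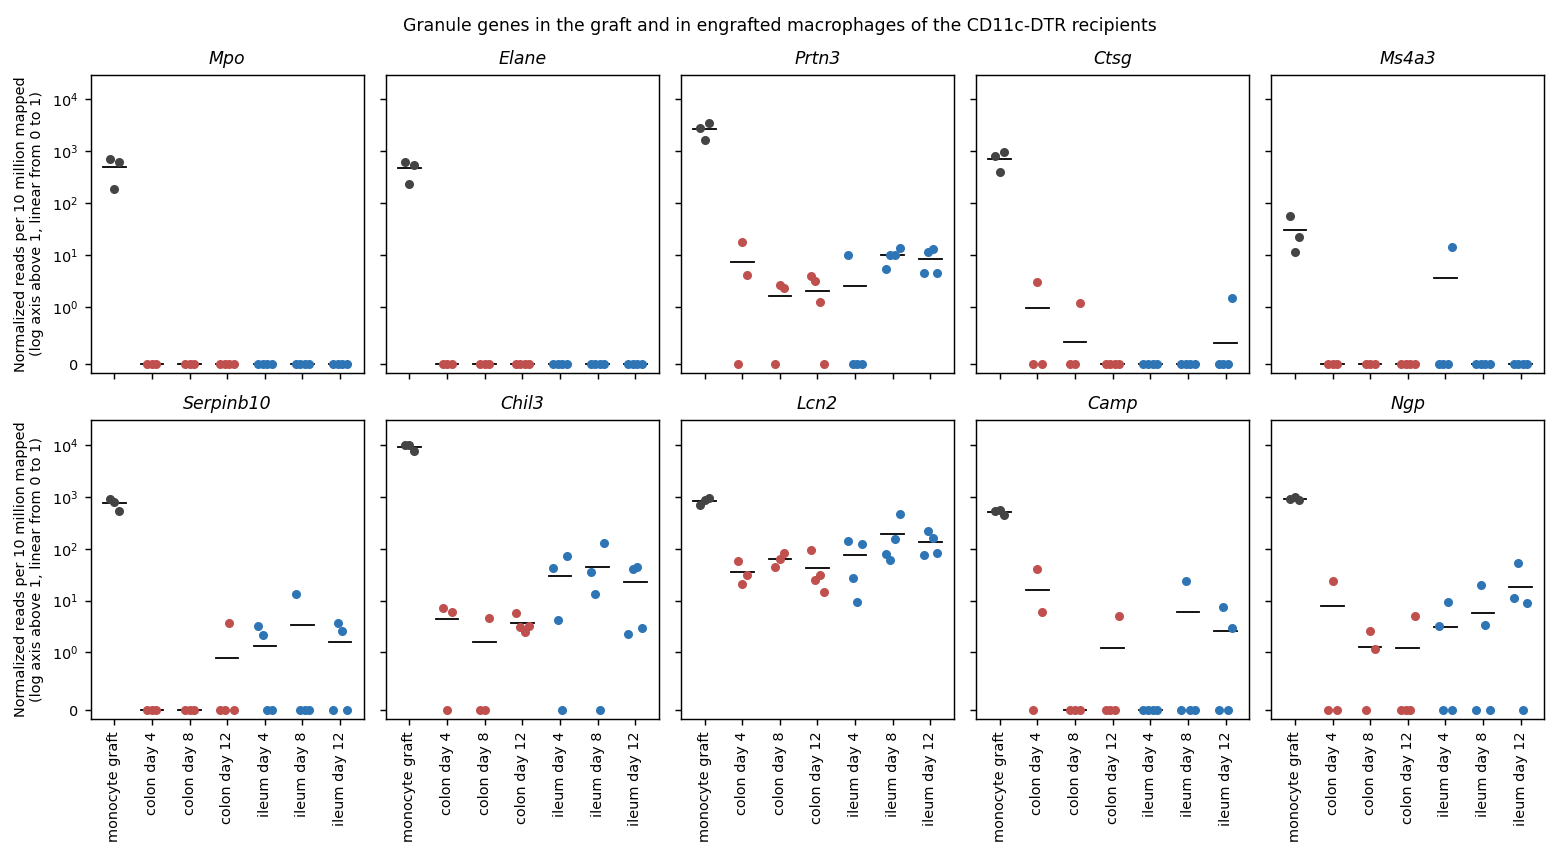
Normalized reads per 10000000 mapped reads of the 10 granule genes by group, 1 point per library (3 to 4 a group) and a bar at the mean, on an axis that is logarithmic above 1 and linear from 0 to 1. Mpo and Elane lie at 0 in all 22 engrafted libraries, Prtn3, Camp and Ngp at scattered low values, and Lcn2 at 9.22 to 472 in every one.

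Mpo and Elane were not read again after transfer. Not 1 read of either gene was found in the 22 engrafted CD11c-DTR libraries or in the 6 CX3CR1-DTR libraries, which together held 68556086 reads on genes, against 601 Mpo reads and 568 Elane reads in the 3 grafts. A count of 0 allows up to 3 reads, counted here over a group. With that floor the loss of Mpo was at least 216-fold to colon of day 4, 239-fold to day 8 and 353-fold to day 12, and at least 159-fold, 196-fold and 276-fold to ileum of days 4, 8 and 12. Elane was at least 150-fold (ileum day 4) to 333-fold (colon day 12) lower. These bounds cover counting error only, and their order follows the depth of the groups. By DESeq2 neither gene passed in the 6 comparisons with the CD11c-DTR groups (adjusted p = 0.0986 to 0.175), and edgeR called both in each of them. Of the 5682 genes with a graft mean of at least 200 normalized reads, 3 had no read in any of the 22 engrafted libraries, and 2 of the 3 were Mpo and Elane. The third was Fcnb, ficolin B, a lectin of marrow myeloid cells and of granules (243 ± 43.6 in the graft, n = 3), which also had no read in the CX3CR1-DTR libraries and was named after its values were seen.

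Ctsg and Prtn3 were read again at a few reads a library. Ctsg had 1 read in each of 3 engrafted libraries (colon day 4 replicate 2, colon day 8 replicate 4 and ileum day 12 replicate 4) and 0 reads in the other 19, against 881 reads in the grafts. From these reads Ctsg was 951-fold lower in colon on day 4 (95% exact interval of the ratio of reads 170 to 37593), 1051-fold on day 8 (188 to 41571) and 1212-fold lower in ileum on day 12 (217 to 47939). It was at least 233-fold (ileum day 4) to 517-fold (colon day 12) lower in the groups with no read.

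Prtn3, the most read of the primary granule genes in the graft (2644 ± 932, n = 3), was found in 16 of 22 engrafted libraries at 6 reads at most. In colon it stood at 0, 17.8 and 4.07 normalized reads on day 4, at 0, 2.61 and 2.34 on day 8, and at 3.89, 3.1, 1.22 and 0 on day 12. In ileum it stood at 9.91, 0, 0 and 0 on day 4, at 5.42, 10.1, 10.0 and 13.6 on day 8, and at 4.53, 11.3, 13 and 4.44 on day 12. On days 8 and 12 every ileal library held Prtn3 reads (2 to 5). Each lay above every colonic library of the same day in the fit (0 to 2 reads). But the colonic library of day 8 left out of the fit (6.71, from 1 read) lay above ileum day 8 replicate 1, and on day 4 the segments overlapped. By edgeR it fell by 8.37 ± 0.65 (log2, SE) in colon on day 4 (adjusted p = 2.78e-10), and the differences were -9.96 ± 0.63 in colon on day 12 (adjusted p = 2.03e-11), -7.52 ± 0.56 in ileum on day 8 (adjusted p = 2.52e-10) and -7.92 ± 0.56 in ileum on day 12 (adjusted p = 1.33e-10). Its neighbour Cfd, the complement factor D gene 2636 bases beyond Elane, had the reverse pattern, with 0 reads in the 3 grafts and up to 2613 normalized reads (ileum day 12 replicate 3) in the engrafted libraries, 17 of 22 of which held Cfd reads. Prss57, a further serine protease of the primary granule, stood at 24.2 ± 10.2 in the graft (n = 3) and was below the filter, with 0 to 19.0 in the engrafted libraries.

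Ms4a3 failed the filter and was not tested. It had 35 reads in the grafts, 2 reads in 1 engrafted library (ileum day 4 replicate 4, 14.3 normalized reads) and none in the other 21 or in the CX3CR1-DTR libraries. With the floor of 3 reads its loss was at least 12.6-fold to colon of day 4 and at least 20.5-fold to colon of day 12. To ileum of day 4 the ratio of reads was 13.9 (95% exact interval 3.57 to 119), and the library with reads overlapped the lowest graft. Ptprc fell 26.5-fold to colon of day 4 and 5.48-fold to ileum of day 4. Against Ptprc the reads of these 2 groups therefore cannot show a loss of Ms4a3. Csf1r fell 6.57-fold to colon of day 4, less than the Ms4a3 bound.

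Serpinb10 was nearly gone by day 4. It had 962 reads in the grafts, none in colon on days 4 and 8, a loss of at least 346-fold and 383-fold, and 3 reads in 1 library of colon on day 12. In ileum 5 of 12 libraries held 1 to 5 reads, with the most in day 8 replicate 1 (13.6 normalized reads), and it fell by 6.96 ± 0.69 (log2, SE; adjusted p = 8.97e-08, edgeR) from the graft to ileum on day 8. Of 11 other inhibitors of granule and lysosomal proteases listed, 7 were tested. From the graft to colon on day 4, 5 of the 7 rose and 1 fell (35.9% and 24.5% of all genes tested did), with a median log2 difference of 2.24 against 0.21 for all genes. Serpinb6a stood at 58.1 ± 8.43 in the graft and 3292 ± 288 in colon on day 4 (n = 3 each; log2 difference 6.16 ± 0.56, adjusted p = 2.82e-09), and Serpinb1a, an inhibitor of elastase, at 552 ± 141 and 3067 ± 910 (2.81 ± 0.42, adjusted p = 4.51e-06). Cst3, cystatin C, fell by 2.23 ± 0.33 (adjusted p = 3.45e-06), and Cstb differed by 0.37 ± 0.36 (adjusted p = 0.389). The epithelial markers rose in the same comparison, and their part in these differences was not tested.

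Camp and Ngp, both secondary granule genes, were read in 6 and 11 of the 22 engrafted libraries. Camp had 652 reads in the grafts in all, and after transfer 14 reads (41.5 normalized) in colon day 4 replicate 2, 7 reads (23.6) in ileum day 8 replicate 2 and 2 or 3 reads in 4 other libraries. Ngp had 1198 reads in the grafts and after transfer 14 reads (52.6 normalized) in ileum day 12 replicate 2, 8 reads (23.7) in colon day 4 replicate 2 and 1 to 6 reads in the others. Of the 6 libraries with Camp reads, 5 also held Ngp reads. The library with the most Camp reads, colon day 4 replicate 2, was also the highest of its group in Prtn3 (17.8) and in the calprotectin gene S100a8 (119 against 14.2 and 19.7). Camp fell by 4.76 ± 1.00 (log2, SE; adjusted p = 4.47e-04) in colon on day 4, with 17 reads in the group, a call that DESeq2 did not make (adjusted p = 0.152). In colon on day 8 it had no read, a loss of at least 259-fold. Ngp fell by 6.78 ± 1.00 in colon on day 4 (adjusted p = 3.83e-06), and fell by 5.39 ± 0.80 in ileum on day 12 (adjusted p = 5.03e-06, all by edgeR).

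Chil3 had the most reads of the 10 genes in the graft, where it made up 47.8% to 63.5% of the normalized reads summed over them. Its close paralog Chil4 shares sequence with it, and only uniquely mapped reads were counted, so its level is uncertain. Chil4 stood at 27.0 ± 13.1 in the graft (n = 3) and had no read in the 22 engrafted libraries. In colon Chil3 stood at 7.17, 0 and 6.10 normalized reads on day 4, at 0, 0 and 4.68 on day 8, and at 5.84, 3.1, 2.44 and 3.30 on day 12. In ileum it stood at 42.9, 4.27, 0 and 71.3 on day 4, at 35.2, 13.5, 0 and 126 on day 8, and at 2.26, 41.3, 44.2 and 2.96 on day 12. No colonic library exceeded 4 reads. Of the 12 ileal libraries 7 lay above the highest colonic library, and the other 5 overlapped the colon. From the graft Chil3 fell by 10.45 ± 1.19 in colon on day 4 (adjusted p = 9.29e-08) and fell by 10.85 ± 1.06 on day 12 (adjusted p = 7.95e-09). In ileum the differences were -7.95 ± 0.93 on day 4, -7.03 ± 0.86 on day 8 and -8.38 ± 0.92 on day 12 (adjusted p = 1.74e-07, 4.12e-07 and 7.87e-08, edgeR).

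Lcn2 was read in 22 of 22 engrafted libraries. It made up 19.4% to 100% of the normalized reads of the 10 genes in a colonic library and 47.4% to 92.2% in an ileal one, against 3.95% to 5.78% in the graft. In colon it stood at 57.4, 20.8 and 30.5 normalized reads on day 4, at 43.9, 62.6 and 81.9 on day 8, and at 95.4, 24.9, 31.7 and 14.8 on day 12. In ileum it stood at 142, 27.8, 9.22 and 121 on day 4, at 78.6, 60.7, 157 and 472 on day 8, and at 77.0, 222, 159 and 82.8 on day 12. All of these lay below the lowest graft (702), and ileum day 8 replicate 4, the highest, was also the highest for Chil3. By edgeR the differences from the graft were -4.16 ± 0.79 (log2, SE; adjusted p = 8.45e-05), -3.41 ± 0.75 (adjusted p = 4.11e-04) and -4.02 ± 0.69 (adjusted p = 2.35e-05) in colon on days 4, 8 and 12. In ileum it fell by 3.01 ± 0.69 on day 4 (adjusted p = 6.78e-04) and fell by 2.21 ± 0.64 on day 12 (adjusted p = 0.00509). On day 8 the difference was -1.40 ± 0.63 (adjusted p = 0.0638), which became -2.61 (adjusted p = 6.56e-04) without replicate 4. A further library of colon day 8, which is not among the columns of the study's source table and was kept out here, held 154 normalized Lcn2 reads, 1 Prtn3 read and none of the other 8 genes.

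**Figure D3:**
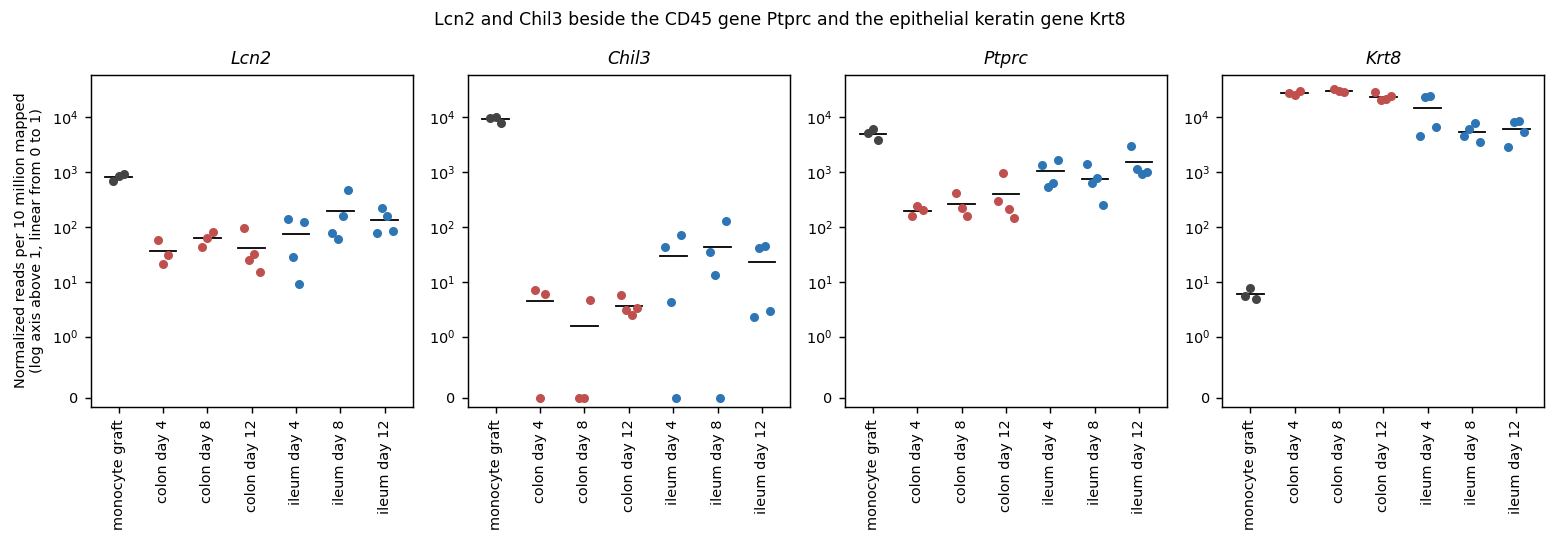
Normalized reads per 10000000 mapped reads of Lcn2, Chil3, the CD45 gene Ptprc and the keratin gene Krt8 by group, 1 point per library and a bar at the mean, on axes logarithmic above 1 and linear from 0 to 1. Lcn2 lies at 9.22 to 472 in engrafted libraries, Chil3 below 10 in every colonic library, Ptprc is lower in colon than in the graft, and Krt8 rises from 4.84 to 7.75 in the graft to 2864 to 32046 in engrafted libraries.

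The losses were also read against genes of the sorted cells, a measure chosen after the data were seen and given with no test, with reads pooled over a group. Ptprc itself had fallen 26.5-fold to colon of day 4, 16.1-fold to colon of day 12, and 5.48-fold and 3.37-fold to ileum of days 4 and 12. Per 100 Ptprc reads there were 50 Prtn3 reads in the graft, 2.99 in colon on day 4, 0.557 in colon on day 12 and 0.484 in ileum on day 12. Chil3 went from 179 per 100 Ptprc reads in the graft to 2.61, 1.11 and 1.15 in the same groups. Lcn2 went from 16.3 per 100 Ptprc reads in the graft to 20.1, 31.3 and 12.8 in colon on days 4, 8 and 12, and to 7.76, 23.3 and 7.82 in ileum. Against Ptprc, then, Lcn2 was not lower in colon on days 4 and 8 or in ileum on day 8, and Camp in colon on day 4 was at 6.34 against 9.91 in the graft. Against Csf1r, the receptor gene that both monocytes and macrophages express, Lcn2 was lower in every group, at 16.4 per 100 Csf1r reads in the graft and 1.53 to 5.47 in the 6 engrafted groups.

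Between the days no granule gene changed detectably. From day 4 to day 8 and from day 8 to day 12, 0 of 9 tested genes passed the adjusted threshold in colon or ileum by edgeR, DESeq2 or limma-trend. At an unadjusted p below 0.05 edgeR gave 1 in colon (Camp) and 1 in ileum (Lcn2) from day 4 to day 8, and 0 from day 8 to day 12. Of all genes tested, 0.00% were called in colon between either pair of days, 5.13% in ileum from day 4 to day 8 (4.42% lower and 0.718% higher) and 0.00% from day 8 to day 12. Lcn2, with the most reads, moved by 0.75 ± 0.78 (log2, SE) from day 4 to day 8 in colon and by -0.61 ± 0.70 from day 8 to day 12, and by 1.61 ± 0.67 (adjusted p = 0.158) and -0.81 ± 0.61 in ileum. For Mpo, Elane, Ctsg and Ms4a3 both days of each pair were at or under 3 reads a group, so a change between them was not detectable at this depth.

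Between the segments Chil3, Lcn2 and Ngp passed by edgeR on 1 day or more, each with more normalized reads in ileum. The calls depended on the tool and on single libraries, and the direction of Lcn2 on the gene it was read against. The graft is shared, so that a difference between the losses is the difference between the segments. On day 4, 0 of 9 genes passed by edgeR, DESeq2 or limma-trend (by edgeR 3.18% of all genes did, 2.66% lower in colon and 0.524% higher), with Camp at an unadjusted p below 0.05. On that day experiment 1 gave 2 ileal libraries and 0 colonic ones, and without these ileal libraries Chil3 passed by edgeR. On day 8, 2 of 9 passed, both lower in colon (18.3% of all genes were lower there, 16.7% higher and 35.0% either), and the differences of colon over ileum were -4.37 ± 1.27 in Chil3 (log2, SE; adjusted p = 0.0109) and -2.01 ± 0.70 in Lcn2 (adjusted p = 0.0297). On day 12, 2 of 9 passed, again lower in colon (17.2% of all genes were lower, 15.3% higher and 32.5% either). Lcn2 differed by -1.81 ± 0.65 (adjusted p = 0.0356), and Ngp had 3 reads in colon against 25 in ileum, a 10.7-fold ratio of normalized reads (95% exact interval 3.25 to 55.2; adjusted p = 0.0353 by edgeR). Prtn3 did not pass by edgeR on day 8 (adjusted p = 0.0607) or day 12 (adjusted p = 0.0837). Its fitted libraries did not overlap between segments, on 0 to 2 colonic and 2 to 5 ileal reads a library. The share of all genes without overlap was not counted. Per 100 Csf1r reads Prtn3 stood at 0.153 in colon and 0.149 in ileum on day 8, and at 0.116 and 0.0947 on day 12. DESeq2 called 3 genes on day 8 (Chil3, Lcn2 and Prtn3) and 2 on day 12 (Lcn2 and Prtn3, not Ngp), and limma-trend called 0 on either day. Counts of 2 in 9 are near these background shares. Without ileum day 8 replicate 4, the day 8 differences were -2.82 in Chil3 (adjusted p = 0.0909) and -0.80 in Lcn2 (adjusted p = 0.311), and the Lcn2 call of day 8 was also lost without any 1 of the 3 colonic libraries (adjusted p = 0.0586 to 0.0938). On day 12 no gene passed without ileum replicate 2, colon replicate 2 or colon replicate 3, only Lcn2 without colon replicate 1, and only Ngp without colon replicate 4 or ileum replicate 3. The summed epithelial markers were also higher in colon (139137 to 146375 on day 8) than in ileum (24152 to 47553), and their part in these differences was not tested. Per 100 Ptprc reads, with no test, Lcn2 was higher in colon, at 31.3 against 23.3 on day 8 and 12.8 against 7.82 on day 12. Per 100 Csf1r reads it was higher in colon too, at 5.47 against 2.9 and 2.66 against 1.53. Chil3 on day 8 stayed lower in colon (0.205 against 0.671 per 100 Csf1r reads), as did Ngp on day 12 (0.0868 against 0.182).

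Other granule genes were counted in the same comparisons. Of 11 tested secondary and tertiary granule genes, 6 fell and 2 rose from the graft to colon on day 4, and 7 fell and 3 rose to ileum on day 12 (20.0% of all genes fell and 35.9% rose there), with medians of -2.81 and -2.69 against 0.21 and 0.22 for all genes. Hp, haptoglobin, stood at 13170 ± 1383 in the graft and 19.6 ± 6.39 in colon on day 4 (log2 difference -9.07 ± 1.04, adjusted p = 1.00e-07). Mmp8, neutrophil collagenase, fell by 9.27 ± 0.70 (adjusted p = 5.17e-10), and Chil1, a chitinase-like relative of Chil3, differed by -8.65 ± 1.27 (adjusted p = 3.51e-06). Wfdc21 had no read in colon on day 4, against 79.0 ± 25.4 in the graft (adjusted p = 1.10e-04). Of 8 tested primary granule and processing genes, 5 fell and 1 rose in colon on day 4 (median -1.95), but 1 fell and 3 rose in ileum on day 12 (median 0.17). Lyz2, lysozyme, fell by 5.82 ± 0.81 in colon on day 4 (adjusted p = 1.71e-06) and fell by 2.18 in ileum on day 12 (adjusted p = 0.00445), though its near-identical copy Lyz1 makes its count uncertain, as the copies of the haemoglobin genes do for Hba-a1 and Hbb-b1. Ctsc fell by 2.26 ± 0.56 in colon on day 4 (adjusted p = 0.00129), and the proteoglycan gene Srgn, which holds proteases in granules, fell by 2.06 ± 0.55 there (adjusted p = 0.00268) and rose by 1.21 in ileum on day 12 (adjusted p = 0.0469). Cst7 differed by -2.35 ± 1.18 in colon on day 4 (adjusted p = 0.0893) and rose by 2.64 in ileum on day 12 (adjusted p = 0.0215).

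Lists of cell states and cell types were counted in the same way, beside 24.5% of all genes that fell and 35.9% that rose to colon on day 4 and 20.0% and 35.9% to ileum on day 12. All 10 cell cycle genes were lower in colon on day 4 (median -2.30) and in ileum on day 12 (median -2.40), with differences of -3.42 ± 0.54 in Rrm2 and -2.57 ± 0.39 in Top2a in colon on day 4 (adjusted p = 9.98e-06 and 6.31e-06), along with Ccna2 (-2.45) and Ccnb1 (-2.44). Of 10 tested progenitor genes, 5 fell and 5 rose in colon on day 4. Cebpe, a transcription factor of secondary granule genes, had no read in colon on day 4 against 207 ± 25.2 in the graft, and Flt3 fell by 6.39 ± 1.05 (adjusted p = 4.53e-05), whereas Myb rose by 2.59 ± 0.27 (adjusted p = 2.78e-08) and Sox4 by 3.64 ± 0.41 (adjusted p = 8.86e-08). Of 10 monocyte genes, 7 fell and 1 rose in colon on day 4, with Ly6c2, F13a1 and Fn1 at -7.82, -7.43 and -6.03. Of 10 neutrophil genes tested, 5 fell and 3 rose there, with differences of -4.60 ± 0.88 in S100a8, -5.14 ± 0.93 in S100a9 and -5.82 ± 0.71 in Csf3r (adjusted p = 1.01e-04, 4.87e-05 and 2.46e-07). Of 9 macrophage genes, 4 rose and 4 fell in colon on day 4, and 5 rose and none fell in ileum on day 12. H2-Ab1 rose by 2.26 in colon on day 4, and Adgre1, Cd68 and Fcgr1 differed by -2.57, -2.95 and -2.29 (all past the test). All 10 epithelial markers rose in both, and their part in the differences listed here, those of Myb and Sox4 among them, was not tested. Of 2 tested T cell genes, 0 passed in colon on day 4 and both rose in ileum on day 12. Of 2 tested B cell genes, 1 fell in colon (Cd79b, -3.05) and 2 rose in ileum, and of 3 tested erythroid genes 2 fell (Hba-a1, -2.94, and Hbb-b1, -3.03) and 1 rose in colon.

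The genes outside the 10 were ranked by likeness, and 5 of them had the most similar pattern over the 25 libraries, by the Pearson correlation of log2(normalized reads + 50) with the mean of the 10 genes among 5673 genes with a graft mean of at least 200. They were Kcnk12 (r = 0.9927), Nfe2 (0.9920), Fcnb (0.9917), Fut7 (0.9916) and Galnt9 (0.9906). Nfe2, a transcription factor of megakaryocytes and red cells, stood at 2293 ± 101 in the graft and at 0 to 28.6 in engrafted libraries. Fut7, a fucosyltransferase gene, stood at 303 ± 23.6 and at 0 to 4.27. A gene high in 3 grafts and near 0 elsewhere scores near 1, so the order within the 5 carries little.

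In the CX3CR1-DTR recipients the granule genes were also low, but Chil3 was above the CD11c-DTR colon. These libraries come from the second table, and levels here are reads per 10000000 reads on genes. Their labels read gfp only, whereas the study sorted the CD11c-DTR progeny by CD45.1 and GFP, and whether the sorting differed is not stated. The recipient, the day, the table and any difference in sorting cannot be told apart. From the graft 9 of 9 tested genes were lower (36.0% of 11718 genes were, 39.5% were higher and 75.5% either). Of the other granule genes tested, 5 of 8 primary ones were lower and 2 higher, and 7 of 10 secondary and tertiary ones were lower and 3 higher. Mpo, Elane, Ctsg and Ms4a3 had no read in the 6 libraries. This placed Mpo at least 334-fold, Elane at least 316-fold, Ctsg at least 490-fold and Ms4a3 at least 19.5-fold below the graft. Ptprc itself fell 392-fold to this group, more than the bounds of Mpo, Elane and Ms4a3, so against Ptprc their zeros cannot show a loss. Csf1r fell 4.3-fold. Serpinb10, Camp and Ngp had 1 read each, and Prtn3 had 5 reads over 4 libraries (log2 difference -9.65 ± 0.48, adjusted p = 5.75e-10). Camp was 1088-fold lower by its ratio of reads (95% exact interval 195 to 43032) and Ngp 1999-fold lower (358 to 79013).

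Chil3 was read in all 6 CX3CR1-DTR libraries, from 4 to 36 reads each. Its levels were 139, 17.6, 40.9, 31.3, 85.3 and 81.9, against 8.55, 5.29, 4.34 and 5.86 in CD11c-DTR colon on day 12 and 11191 to 14229 in the graft. The lowest of the 6 lay above the highest of the 4. Chil3 was the 1 gene of 9 tested that passed between these groups (60.7% of all genes did, 25.2% upwards and 35.4% downwards), higher by 3.30 ± 0.57 (log2, SE; adjusted p = 1.80e-04, edgeR), and its difference from the graft was -7.40 ± 0.42 (adjusted p = 1.84e-09). Chil4 had no read in either group. Lcn2 stood at 98.1, 43.9, 13.6, 8.55, 7.11 and 9.10 in the CX3CR1-DTR libraries and at 140, 42.3, 56.5 and 26.4 in CD11c-DTR colon on day 12, and the groups overlapped (difference -1.47 ± 0.63, adjusted p = 0.0582). Without CD11c-DTR colon replicate 4 or CX3CR1-DTR replicate 1 it also passed. Its difference from the graft was -5.31 ± 0.61 (adjusted p = 1.87e-06).

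The cell markers of these 6 libraries were read beside it. Ptprc had 28 reads over the 6 libraries, 13.7 to 34.1 per 10000000 reads on genes, against 255 to 1639 in CD11c-DTR colon on day 12 and 5564 to 8636 in the graft, and Adgre1, the F4/80 gene, stood at 4.55 to 20.4 against 191 to 909. Csf1r (983 to 2819 against 1704 to 6692) and C1qa (4323 to 8082 against 3766 to 13130) overlapped. The epithelial markers summed to 185836 to 240045, against 169798 to 218092. Per 100 Csf1r reads Chil3 stood at 3.61, against 0.231 in CD11c-DTR colon on day 12 and 179 in the graft, and Lcn2 at 1.26 against 2.66 and 16.4. Per 100 Ptprc reads Chil3 stood at 329 against 179 in the graft, so that the direction of its loss depends on the gene it is read against. What part the low Ptprc has in these values was not tested.

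**Figure D4:**
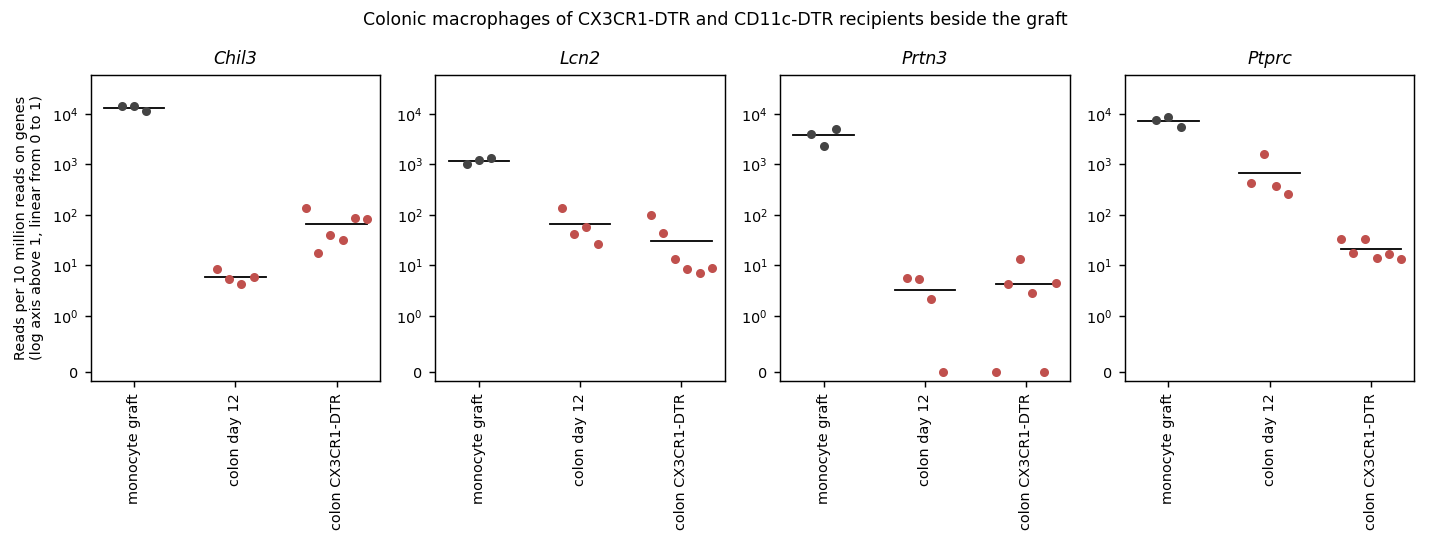
Reads per 10000000 reads on genes of Chil3, Lcn2, Prtn3 and Ptprc in the graft (3 libraries), CD11c-DTR colon on day 12 (4) and CX3CR1-DTR colon (6), with a bar at the mean, on axes logarithmic above 1 and linear from 0 to 1. Chil3 lies at 17.6 to 139 in CX3CR1-DTR colon, above the 4.34 to 8.55 of CD11c-DTR colon, while Ptprc lies at 13.7 to 34.1, below 255 to 1639.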

How the data were processed

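RNA of sorted cells was sequenced from its 3′ end by a derivation of MARS-seq. The authors mapped reads to NCBI37/mm9 with HISAT 0.1.6, kept uniquely mapped reads, and counted them on the exons of each gene on the sense strand with HOMER. The deposited tables hold these raw counts per gene and library. Whether molecular identifiers were collapsed is not given in the sources used here, so intervals and floors cover counting error only. Columns without a sample label (52) in the second table were not used. Groups followed the labels, and experiments their dates. Replicate 1 of colon day 8 was left out of the fits because it is not among the columns of the study's source table. The members and lists were chosen with earlier results of these data known.

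Counts were fitted with edgeR 4.0.16 (quasi-likelihood, TMM, Benjamini-Hochberg; R 4.3.3) across 11842 genes with at least 50 normalized reads in 3 of 25 libraries of 7 groups, and across 11718 genes in 13 libraries for the CX3CR1-DTR comparisons. The 10 members are named in every group, and of each list up to 4 genes with the largest absolute change to colon on day 4 and a graft mean of at least 50, of which 1 is not reported here. Likeness to the members was ranked among genes with a graft mean of at least 200, and neighbours and a paralog (Cfd, Prss57, Chil4) are named. A group without reads was set to a floor of 3 reads, and a group with 1 to 3 reads was compared by the ratio of pooled reads with an exact 95% binomial interval. Of 51 pairs of libraries of 1 group, none agreed within counting noise (lowest chi-square per degree of freedom 4.73). Libraries of 1 experiment are paired by their dates. The median correlation of their deviations from the group means was 0.02 over 96 pairs, against -0.01 over 171 pairs of different experiments. The edgeR fit was tested on simulated data, with changes smaller than those of most of the 10 members. That simulation did not cover the floors, the exact intervals or the other tools. The SE printed beside a log2 difference was worked back from that difference and its edgeR test result. It was not estimated separately, and it is only approximate where a group held few reads. DESeq2 1.42.0, limma 3.58.1, other scalings and filters, an experiment block and leaving out each library were the alternatives.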

Additional observations from a re-analysis of the deposited data

Results flagged for a closer look

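Of 15 combinations of gene and group tested for a library standing apart, 3 gave one. All 3 rest on 5 to 7 reads in 1 library. Where the other libraries hold no read, any library with reads stands apart, so no excess over chance can be read from this count. In ileum on day 8, replicate 1 held all 5 Serpinb10 reads (13.6 normalized reads), and replicate 2 stood apart in Camp (23.6, 7 reads, with none in the other libraries) and in Ngp (20.2, against 0 to 3.35).

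The loss from the shared graft differed between groups, by the edgeR test of the difference itself, in 5 cases. Colon over ileum on day 8 it was -4.37 (log2) in Chil3 and -2.01 in Lcn2. On day 12 it was -1.81 in Lcn2 and -3.39 in Ngp, the last from 3 colonic and 25 ileal reads. Per Ptprc or Csf1r reads Lcn2 was higher in colon on both days. Chil3 was higher by 3.30 in CX3CR1-DTR colon than in CD11c-DTR colon on day 12.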

How the results depend on the processing

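Of 962 values of single genes under the alternatives other than the Ptprc and Csf1r scaling, 940 kept their direction and their side of the threshold, 17 lost significance, 5 gained it and 0 reversed. With the experiment as a replicate block, the fit gave the same counts of genes passing in all comparisons among the CD11c-DTR groups (9, 9, 9, 9, 8 and 9 from the graft, 0 between days, and 0, 2 and 2 between segments). Over all genes the block moved the count from 608 to 0 between days 4 and 8 in ileum and from 377 to 1265 between segments on day 4. No paired analysis was possible for CX3CR1-DTR because the labels tie those libraries to no experiment. Leaving out 1 library at a time gave 3 to 9 genes from the graft to each group, 2 to 9 to ileum on day 8 and to CX3CR1-DTR colon, 0 between days and between segments on day 4, 1 to 3 on day 8, 0 to 2 on day 12, and 1 to 2 between CX3CR1-DTR and CD11c-DTR colon. The low counts from the graft arose only without a graft library, since genes that pass the filter through the graft alone were then not tested. Between segments, day 4 gave 1 gene (Chil3) without the ileal libraries of experiment 1. Day 8 gave 1 (Chil3) with library totals or with all 4 colonic libraries, and 0 with limma-trend or the compared groups alone. Day 12 gave 0 with limma-trend and 1 (Lcn2) with the compared groups alone. DESeq2 gave 3 on day 8 (with Prtn3) and 2 on day 12 (Lcn2 and Prtn3 in place of Lcn2 and Ngp). The cause was not tested. Lcn2 from the graft to ileum on day 8 passed with library totals (-2.11), limma-trend (-2.14) and no filter (-1.49). Scaling to Ptprc reads was an alternative chosen after seeing the data. By it the direction from the graft turned for Lcn2 in colon on day 4 (0.30) and day 8 (0.94) and in ileum on day 8 (0.51). In CX3CR1-DTR colon it turned for Lcn2 (2.81) and Chil3 (0.88). Between segments the direction of Lcn2 turned on days 8 and 12, per Ptprc and per Csf1r reads. Genes with 0 to 3 reads a group are limited by depth, and changes among them were not detectable.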
